A study of Mus musculus with 12 samples.

Results

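The 10 genes described here, Sorbs2, Hspg2, Lrp8, Fzd6, Amot, Apcdd1, Cav2, Atp2b4, Eps8 and Coro2b, are genes that were lower in the microglia preparations of App NL-G-F mice, called App mice from here on, that had been given rh Bri2 BRICHOS R221E. They were picked from 15425 genes with enough counts to be tested, out of 55487 genes in the table, for low p-values or strong falls in that comparison. All 10 passed the filter on low counts. The falls of these genes in App mice are therefore what chose them, and they are given as a description without a test. The levels of WT mice did not enter the choice.

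CD11b-positive cells were isolated with antibody-coated magnetic beads from the papain-digested cortex of 12 male mice, and bulk mRNA sequencing was done on each mouse. CD11b, an integrin subunit, is carried by myeloid cells in general. The 4 groups of 3 mice were WT mice given veh, which was PBS, WT mice given rh Bri2 BRICHOS R221E, App mice given veh and App mice given rh Bri2 BRICHOS R221E. Every mouse received 24 intravenous injections over 12 weeks from 9 months of age, at 10 mg/kg in the treated groups, and was sacrificed 4 weeks after the treatment ended. App NL-G-F mice are a knock-in line in which the mouse App gene carries a humanized amyloid sequence with the Swedish, Iberian and Arctic mutations, expressed from its own promoter in every cell that uses it. The agent is a recombinant human chaperone domain, BRICHOS, taken from Bri2 and altered by the R221E mutation. The libraries held 12433402 to 17889654 counts, so that 3 counts correspond to 0.168 to 0.241 CPM, below the level of any of the 10 genes in any mouse. The lowest count of any of them in a library was 50, for Atp2b4. CPM are counts scaled to a common library size with trimmed-mean (TMM) factors, and levels are set against the mean of the veh-treated WT mice.

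Many of the 10 genes are best known from the vessel wall and from cell adhesion. The lining cells of brain capillaries form tight junctions, rest on a basement membrane and are kept in their barrier state by Wnt ligands that neural cells secrete and that frizzled receptors receive. Caveolae are small pits of the plasma membrane that these cells share with pericytes and smooth muscle cells, and astrocyte end-feet cover the outer face of the basement membrane. Several of the genes are also used by astrocytes and neurons, so that a bulk sample does not say which cell a transcript came from.

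The sequence upstream of the gene start is shown for the genes whose RefSeq promoter window begins upstream of, and ends close to, the start of their gene model, because genes that move together can be compared by what their promoters share. Of the 10 genes, 7 had an entry in the table, and 4 met this condition. Each line gives the GRCm38 region, the strand and the bases 5′ to 3′, which end at the base before the gene start; the sequences are RefSeq's on GRCm38.p6. Capitals mark matches to GGGCGG, the GC box, and CCAAT, the CCAAT box, on either strand.
Sorbs2, chr8:45507538-45507787, plus strand: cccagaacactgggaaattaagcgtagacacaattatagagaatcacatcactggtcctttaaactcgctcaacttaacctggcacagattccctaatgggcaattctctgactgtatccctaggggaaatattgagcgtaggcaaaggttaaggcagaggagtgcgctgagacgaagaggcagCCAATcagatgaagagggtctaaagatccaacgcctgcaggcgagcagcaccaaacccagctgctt
Hspg2, chr4:137468553-137468768, plus strand: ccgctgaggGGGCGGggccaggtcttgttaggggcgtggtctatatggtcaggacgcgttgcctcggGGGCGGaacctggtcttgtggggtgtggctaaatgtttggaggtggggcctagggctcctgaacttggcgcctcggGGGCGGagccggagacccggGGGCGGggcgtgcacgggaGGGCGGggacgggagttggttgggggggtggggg
Cav2, chr6:17280935-17281184, plus strand: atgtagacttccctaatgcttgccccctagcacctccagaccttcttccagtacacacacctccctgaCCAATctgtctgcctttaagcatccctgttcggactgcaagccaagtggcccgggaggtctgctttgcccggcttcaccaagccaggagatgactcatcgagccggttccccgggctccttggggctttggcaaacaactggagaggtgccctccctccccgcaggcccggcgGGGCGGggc
Coro2b, chr9:62537045-62537294, minus strand: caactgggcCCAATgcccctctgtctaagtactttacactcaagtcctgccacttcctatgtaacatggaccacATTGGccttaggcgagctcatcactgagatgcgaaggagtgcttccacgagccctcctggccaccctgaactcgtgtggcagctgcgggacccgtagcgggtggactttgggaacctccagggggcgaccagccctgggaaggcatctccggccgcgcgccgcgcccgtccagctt
The stretch in front of Hspg2 held 5 GC boxes, Cav2 had 1, and none was found in front of Sorbs2 and Coro2b. Coro2b had 2 CCAAT boxes, Sorbs2 and Cav2 had 1 each and Hspg2 had none. Of the 32851 promoters in the table, 32.7% held a GC box and 33.9% a CCAAT box within 250 bases upstream, and 27.9% and 30.5% within the 216 bases that could be shown for Hspg2. No match was found in the 4 stretches for CCGGAAG, bound by ETS factors, TATAAA, the TATA box, CTTTGA, bound by the TCF/LEF factors of Wnt signalling, or GGAATG, bound by TEAD factors. These letters occur within 250 bases upstream in 6.91%, 12.4%, 13.8% and 12.6% of all promoters in the same order. The 4 promoters thus shared no single motif among those searched.

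In treated App mice the mean level of each of the 10 genes lay below that of veh-treated WT mice. The median of the 10 genes, as a percentage of the veh-treated WT mean, was 88.3% in veh-treated App mice and 47.7% in treated App mice. In treated WT mice it was 113%. The treated App level ran from 34.5% for Fzd6 to 61.0% for Amot, whereas the treated WT level ran from 94.1% for Cav2 to 132% for Lrp8. In veh-treated App mice the genes were spread from 65.5% for Hspg2 to 137% for Amot.

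**Figure D1:**
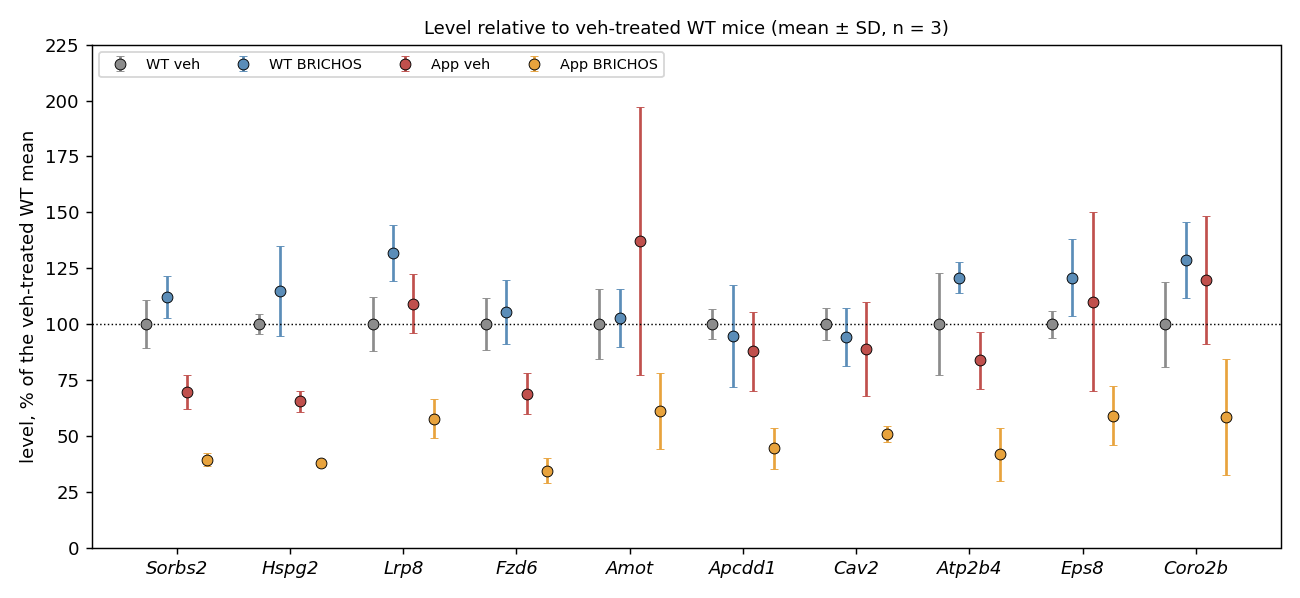
Level of each gene (mean ± SD, n = 3 mice) as a percentage of the mean of veh-treated WT mice, with a dotted line at 100. All 10 genes are lowest in treated App mice, between 34.5% and 61.0%, while veh-treated App mice range from 65.5% to 137%.

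Hspg2 and Sorbs2 had the most uniform values among the 10 genes. Hspg2 (ENSMUSG00000028763, chromosome 4, 137468769 to 137570630, plus strand, GRCm38) encodes perlecan, the large heparan sulfate proteoglycan of basement membranes. Hspg2 was at 24.2, 26.2 and 24.2 CPM in the veh-treated WT mice, at 34.4, 25.6 and 25.7 CPM in the treated WT mice, at 15.4, 17.7 and 15.9 CPM in the veh-treated App mice and at 9.68, 8.96 and 9.52 CPM in the treated App mice. The groups of App mice did not overlap each other or the WT groups, and the difference between treated and veh-treated App mice was 1.74-fold (log2 fold change -0.80 ± 0.12, SE). Against veh-treated WT mice, the level was 65.5% ± 4.8 (SD, n = 3) in veh-treated and 37.7% ± 1.5 (SD, n = 3) in treated App mice.

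Sorbs2 (ENSMUSG00000031626, chromosome 8, 45507788 to 45827906, plus strand) encodes ArgBP2, an adaptor that links Arg and Abl kinases to the actin cytoskeleton at stress fibres and adhesions. Sorbs2 was at 16.0, 18.2 and 19.9 CPM in the veh-treated WT mice, at 22.0, 18.6 and 20.1 CPM in the treated WT mice, at 11.8, 14.1 and 11.6 CPM in the veh-treated App mice and at 7.17, 6.53 and 7.63 CPM in the treated App mice. As with Hspg2, the groups stepped down without overlap from WT to veh-treated and to treated App mice, and the last step was 1.76-fold (log2 fold change -0.82 ± 0.12, SE). An antisense gene, Sorbs2os, shares exonic positions with Sorbs2, and the strand setting of the counting is not given in the sources used here, so that reads of the pair cannot be told apart.

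Fzd6, Apcdd1 and Lrp8 are membrane proteins at or near Wnt signalling and lipoprotein receptors. Fzd6 (ENSMUSG00000022297, chromosome 15, 39006034 to 39038188, plus strand) is a frizzled receptor known above all for planar cell polarity, the alignment of cells within a sheet. Fzd6 was at 14.9, 16.9 and 18.8 CPM in the veh-treated WT mice, at 20.5, 15.9 and 16.9 CPM in the treated WT mice, at 10.5, 13.4 and 11.0 CPM in the veh-treated App mice and at 6.65, 6.01 and 4.76 CPM in the treated App mice. After treatment it had the lowest level among the 10 genes on the scale of the WT mean, 34.5% ± 5.7 (SD, n = 3), and every treated App mouse was below every other mouse. The fold between the App groups was 1.99 (log2 fold change -0.996 ± 0.16, SE). The antisense gene Gm26704 overlaps exons of Fzd6, with the same limit as for Sorbs2, and the microRNA gene Mir6903 lies in an exon of Atp2b4.

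Apcdd1 (ENSMUSG00000071847, chromosome 18, plus strand) encodes a membrane glycoprotein that binds Wnt and inhibits the pathway, and it is itself a known target gene of Wnt signalling in brain endothelial cells. Apcdd1 was at 29.6, 29.0 and 26.1 CPM in the veh-treated WT mice, at 33.9, 24.7 and 21.6 CPM in the treated WT mice, at 24.0, 30.2 and 20.2 CPM in the veh-treated App mice and at 14.9, 9.72 and 12.99 CPM in the treated App mice. The veh-treated App mice overlapped the WT mice, whereas the 3 treated ones were below all others, 1.98-fold under the veh-treated App mean (log2 fold change -0.98 ± 0.20, SE).

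Lrp8 (ENSMUSG00000028613, chromosome 4, 107802261 to 107876840, plus strand) encodes ApoER2, a receptor for Reelin and for apolipoprotein E. Lrp8 was at 15.3, 13.1 and 16.7 CPM in the veh-treated WT mice, at 17.7, 20.7 and 21.1 CPM in the treated WT mice, at 15.6, 18.7 and 15.0 CPM in the veh-treated App mice and at 9.36, 7.17 and 9.52 CPM in the treated App mice. The ranges of the veh-treated genotypes overlapped, the treated WT mice were above the veh-treated WT mice and the treated App mice were below all others, at 57.7% ± 8.7 of the veh-treated WT mean (SD, n = 3). The fold between the App groups was 1.89 (log2 fold change -0.92 ± 0.14, SE).

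**Figure D2:**
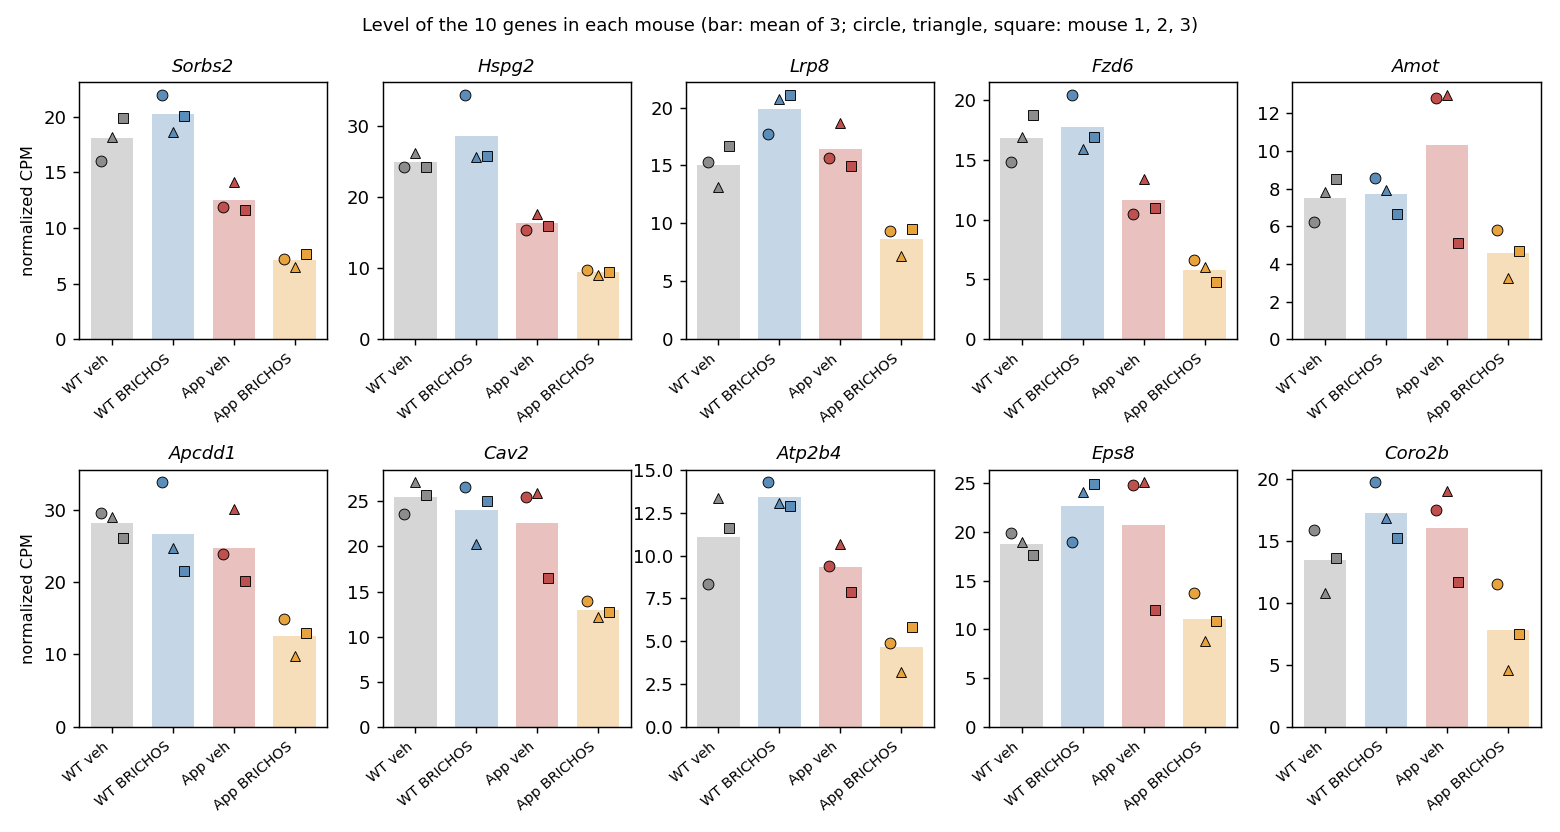
Normalized CPM of each gene in each mouse, with bars at the mean of 3 mice and circles, triangles and squares for mice 1, 2 and 3 of a group; all axes start at 0. Treated App mice are below every other mouse for 7 genes, whereas for Amot, Eps8 and Coro2b they overlap a veh-treated group, and mouse 3 of the veh-treated App group is far below the other 2 for Amot and Eps8.

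Cav2 and Atp2b4 are proteins of the plasma membrane. Cav2 (ENSMUSG00000000058, chromosome 6, 17281185 to 17289115, plus strand) encodes caveolin-2, a partner of caveolin-1 in the coat of caveolae. Cav2 was at 23.6, 27.2 and 25.7 CPM in the veh-treated WT mice, at 26.6, 20.3 and 25.1 CPM in the treated WT mice, at 25.5, 25.9 and 16.5 CPM in the veh-treated App mice and at 13.9, 12.2 and 12.8 CPM in the treated App mice. The veh-treated App mice 1 and 2 were within the WT range and mouse 3 was below it, and the treated App mice were lower still (1.75-fold, log2 fold change -0.81 ± 0.16, SE).

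Atp2b4 (ENSMUSG00000026463, chromosome 1, 133699457 to 133801041, minus strand) encodes PMCA4, a pump that drives calcium out of the cell. Atp2b4 was at 8.35, 13.3 and 11.6 CPM in the veh-treated WT mice, at 14.3, 13.1 and 12.9 CPM in the treated WT mice, at 9.39, 10.7 and 7.85 CPM in the veh-treated App mice and at 4.91, 3.20 and 5.82 CPM in the treated App mice. Again the treated App mice did not reach the lowest value of any other group, and the fold between the App groups was 2.02 (log2 fold change -1.01 ± 0.22, SE).

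Amot, Eps8 and Coro2b act on the actin cytoskeleton or on junctions, and they had the widest spread. Amot (ENSMUSG00000041688, X chromosome, 145446425 to 145505181, minus strand) encodes angiomotin, a junction protein that binds the transcriptional co-activator YAP. Amot was at 6.23, 7.83 and 8.50 CPM in the veh-treated WT mice, at 8.57, 7.94 and 6.64 CPM in the treated WT mice, at 12.8, 12.996 and 5.11 CPM in the veh-treated App mice and at 5.81, 3.26 and 4.68 CPM in the treated App mice. It had the steepest fall of the 10 genes (2.25-fold, log2 fold change -1.17 ± 0.32, SE), but the App groups overlapped, because mouse 3 of the veh-treated group was at 39.6% of the mean of mice 1 and 2.

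Eps8 (ENSMUSG00000015766, chromosome 6, 137477245 to 137654876, minus strand) encodes an actin-capping and bundling protein that passes signals of the EGF receptor to Rac. Eps8 was at 19.9, 18.9 and 17.6 CPM in the veh-treated WT mice, at 19.0, 24.1 and 25.0 CPM in the treated WT mice, at 24.9, 25.1 and 12.0 CPM in the veh-treated App mice and at 13.8, 8.77 and 10.8 CPM in the treated App mice. Mouse 3 of the veh-treated App group stood at 48.0% of the mean of the other two and within the treated range, so that these groups overlapped too (1.86-fold, log2 fold change -0.90 ± 0.25, SE).

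Coro2b (ENSMUSG00000041729, chromosome 9, 62419492 to 62537044, minus strand) encodes a coronin, a family of actin-binding proteins. Coro2b was at 15.9, 10.8 and 13.6 CPM in the veh-treated WT mice, at 19.8, 16.8 and 15.3 CPM in the treated WT mice, at 17.5, 19.0 and 11.7 CPM in the veh-treated App mice and at 11.5, 4.54 and 7.48 CPM in the treated App mice. The App groups were separated only by the gap between 11.7 and 11.5 CPM (2.05-fold, log2 fold change -1.04 ± 0.29, SE), and one treated mouse lay within the range of the veh-treated WT mice.

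Divided by exonic length, so that genes can be compared, the level in veh-treated WT mice was highest for Cav2 at 7.65 CPM per kb, followed by Fzd6 at 3.497, Coro2b at 2.27, Apcdd1 at 2.19, Hspg2 at 1.74, Eps8 at 1.52, Lrp8 at 1.43, Atp2b4 at 0.907, Amot at 0.895 and Sorbs2 at 0.648 CPM per kb. Coro2b and Apcdd1, Eps8 and Lrp8, and Atp2b4 and Amot lay within 1 SD of each other. After treatment of App mice, Cav2 was still first at 3.89 CPM per kb and Sorbs2 last at 0.255 CPM per kb.

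The treatment of WT mice is the comparison that the choice of the genes did not use, and it asks whether the same genes are lower after rh Bri2 BRICHOS R221E without the App mutations. Of the 10 genes, 8 had a higher mean after treatment and 2, Apcdd1 and Cav2, had a lower one. The median log2 fold change was 0.18, against -0.0036 for all 15425 genes, and the 10 values ran from -0.09 to 0.40. Only Lrp8 passed an unadjusted p under 0.05 in edgeR's quasi-likelihood test, 1 of 10 genes beside 11.4% of all genes. Its treated WT mice were 1.32-fold higher (log2 fold change 0.40 ± 0.14, SE), with an unadjusted p of 0.0137 and an adjusted p of 0.311 from edgeR, and the WT groups did not overlap. Higher without overlap was seen for 8.36% of all genes. No member passed an adjusted p under 0.05 in edgeR, and neither did any other gene (0%), whereas 1755 genes passed without adjustment and 85 with adjustment in DESeq2's Wald test.

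For the other 9 genes the WT groups overlapped, and the adjusted p in edgeR was between 0.541 for Hspg2 and 0.980 for Amot. The log2 fold change was 0.37 ± 0.28 for Coro2b, 0.27 ± 0.24 for Eps8, 0.27 ± 0.21 for Atp2b4, 0.20 ± 0.11 for Hspg2 and 0.17 ± 0.11 for Sorbs2 (SE). It was 0.08 ± 0.15 for Fzd6, 0.04 ± 0.31 for Amot, -0.08 ± 0.19 for Apcdd1 and -0.09 ± 0.16 for Cav2 (SE). These differences were within the spread between mice or near it, which does not show that the level was the same. Mouse 1 of the treated WT group had the highest Hspg2, Fzd6, Apcdd1, Amot, Sorbs2, Cav2, Atp2b4 and Coro2b of its group, and without it the median of the 10 genes was 0.069, and without mouse 1 of the veh-treated WT group 0.090. Without mouse 2 of the veh-treated WT group, no member passed an unadjusted p under 0.05.

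For the treated App mice, the same fit gave 10 of 10 genes lower, with a median log2 fold change of -0.95 against 0.0078 for all genes. Fold changes lay between -0.80 for Hspg2 and -1.17 for Amot, and 8 of the 10 genes were lower without overlap, all but Amot and Eps8. Lower without overlap was found for 7.09% of all genes, and lower at an unadjusted p under 0.05 for 7.67%, but since this contrast chose the genes, nothing is read from their count. Among all tested genes ordered by p in this contrast, Sorbs2, Hspg2, Lrp8 and Fzd6 were at places 2 to 5, Cav2 at 27, Apcdd1 at 30, Atp2b4 at 46, Amot at 180, Coro2b at 205 and Eps8 at 206. There was no fixed limit to the choice: 185 genes were lower with a p at or below that of the last member, and 175 of these are not among the 10. A fall larger than that of Amot was seen for 464 genes. In edgeR only 1 gene of the series, 0.00648% of those tested, passed an adjusted p under 0.05 here, and it was not a member.

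Veh-treated App mice differed from veh-treated WT mice for some members and not for others. The comparison shares the veh-treated App mice with the choice of the genes and is therefore a description. Sorbs2, Hspg2 and Fzd6 were lower without overlap, with log2 fold changes of -0.52 ± 0.12, -0.61 ± 0.11 and -0.54 ± 0.15 (SE), whereas 25.3% of all genes were lower without overlap between these groups. For Atp2b4, Apcdd1 and Cav2 the log2 fold changes were -0.25 ± 0.21, -0.19 ± 0.19 and -0.17 ± 0.16 (SE), and for Lrp8, Eps8, Coro2b and Amot 0.13 ± 0.14, 0.14 ± 0.24, 0.26 ± 0.28 and 0.46 ± 0.31 (SE). The median of the 10 was -0.18 against -0.022 for all genes.

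Against the same WT mice, which shares the treated App mice with the choice, all 10 genes were lower in the treated App mice, 9 of them without overlap, which held for 25.3% of all genes. The median log2 fold change was -1.07 against -0.043 for all genes. Fzd6 at -1.53 ± 0.16, Hspg2 at -1.41 ± 0.12, Sorbs2 at -1.34 ± 0.12, Atp2b4 at -1.27 ± 0.22 and Apcdd1 at -1.17 ± 0.20 (SE) were the farthest below. Cav2 was at -0.97 ± 0.16, Lrp8 at -0.79 ± 0.14, Coro2b at -0.77 ± 0.29, Eps8 at -0.76 ± 0.25 and Amot at -0.71 ± 0.32 (SE), and Coro2b was the one whose groups overlapped. The 3 genes that were already lower in veh-treated App mice were thus the 3 lowest after treatment on this scale.

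The close relatives of the 10 genes gave a mixed picture in treated against veh-treated App mice. Cav1, which encodes the main coat protein of caveolae, was 1.70-fold lower (log2 fold change -0.77 ± 0.21, SE), from 13.3 to 20.8 CPM in veh-treated to 7.74 to 10.5 CPM in treated mice. Fzd3 had a log2 fold change of -1.02 ± 0.41, Atp2b2 of -0.97 ± 0.33 and Eps8l2 of -0.56 ± 0.22 (SE). Each of these 4 genes had an unadjusted p under 0.05 and none had an adjusted p under 0.05 in edgeR.

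The paralogs that follow did not pass an unadjusted p under 0.05. Atp2b1, a calcium pump of the same family as Atp2b4, was at -0.01 ± 0.05, Coro1a, Coro1b, Coro1c and Coro2a were at 0.07 ± 0.08, 0.07 ± 0.05, 0.14 ± 0.07 and 0.12 ± 0.11, and Amotl1 and Amotl2 were at -0.15 ± 0.08 and -0.26 ± 0.22 (SE). Fzd1, Fzd2, Fzd5 and Fzd9 were at -0.10 ± 0.30, -0.91 ± 0.42, 0.18 ± 0.15 and -0.62 ± 0.30, and Sorbs3, Atp2b3 and Eps8l1 at -0.30 ± 0.19, -0.57 ± 0.63 and -0.38 ± 1.02 (SE). Vldlr, the other Reelin receptor, was at -0.22 ± 0.38 (SE), and at -0.90 ± 0.37 in veh-treated App against veh-treated WT mice (SE, adjusted p = 0.0754 in edgeR).

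The frizzled family moved in both directions between genotypes, in a comparison where 20.1% of all genes rose and 16.9% fell with an adjusted p under 0.05. Fzd4, the receptor for Norrin that brain and retinal endothelial cells use, fell in veh-treated App mice (log2 fold change -0.65 ± 0.14, SE, adjusted p = 0.00297 in edgeR) and was at -0.16 ± 0.14 (SE) between the treatments of App mice. Fzd7 rose in veh-treated App mice, from 19.2 to 27.8 CPM in WT to 59.6 to 77.5 CPM (log2 fold change 1.62 ± 0.13, SE, adjusted p = 2.83e-06 in edgeR), and was at 77.3 to 81.2 CPM in treated App mice. The mean of Fzd6 was thus lower, and that of Fzd7 higher, in both App groups than in veh-treated WT mice.

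**Figure D3:**
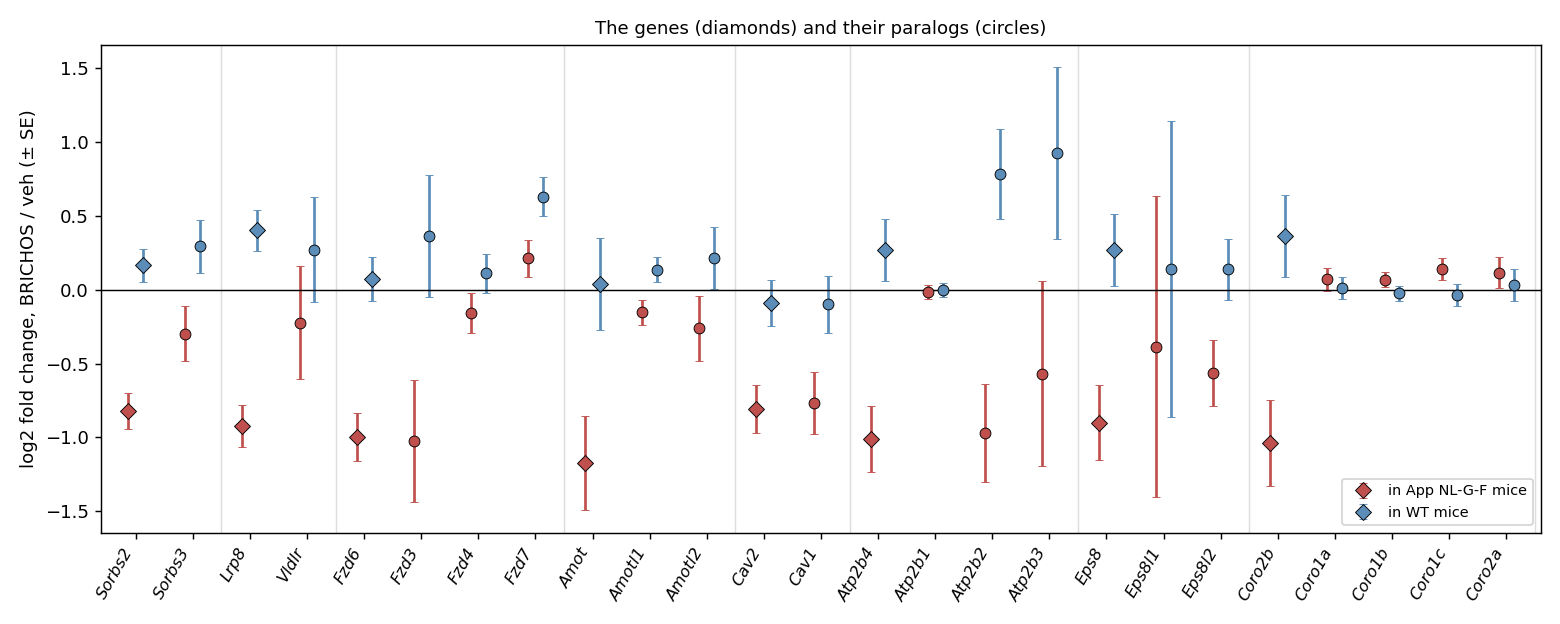
Log2 fold change of rh Bri2 BRICHOS R221E over veh (± SE) for 8 of the genes (diamonds) and genes of the same families (circles), in App mice (red) and WT mice (blue). The diamonds lie between -0.81 and -1.17 in App mice, which is how they were chosen, whereas Atp2b1 and the Coro1 genes lie near 0.

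The pathways around the members were followed with gene lists, which were written with earlier results of these data known. Their counts and medians are therefore descriptions, also where the share of all genes is set beside them. In treated against veh-treated App mice, 12 of 38 tested genes of Wnt signalling were lower at an unadjusted p under 0.05 and 1, the frizzled gene Fzd8 (0.43 ± 0.18, SE), was higher, where 7.67% of all genes were lower and 3.18% higher. The median of the list was -0.37. Axin2, a feedback inhibitor and widely used readout of Wnt signalling that was picked out here after its values were seen, was at 6.22 to 11.2 CPM in veh-treated and 4.31 to 4.58 CPM in treated App mice, and its log2 fold change was -0.97 ± 0.20 (SE, adjusted p = 0.212 in edgeR). Lef1, a transcription factor of the pathway, was at -0.69 ± 0.20, and Adgra2, a co-receptor for Wnt7 ligands in brain endothelial cells, at -0.85 ± 0.18 (SE). Ctnnb1, which encodes beta-catenin and has the highest level in the list, was at 0.08 ± 0.07 (SE). The count of 13 in either direction became 7 without mouse 2 of the treated App group.

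Of the basement membrane genes around Hspg2, 7 of 23 were lower at an unadjusted p under 0.05 and none was higher, with a median of -0.53. Col4a1 and Col4a2, the main collagen IV chains, were at -0.70 ± 0.20 and -0.53 ± 0.21, and the laminin chain gene Lama5 at -0.67 ± 0.16 (SE). Sparc, the gene of highest level in the list, which microglia express, was at 0.09 ± 0.07 (SE). The count was 4 without mouse 2 of the veh-treated or without mouse 2 of the treated App group.

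Of the caveolae genes around Cav2, 3 of 9 were lower at an unadjusted p under 0.05, namely Cav1, Cavin1 (-0.60 ± 0.15, SE) and Cavin2 (-0.57 ± 0.15, SE), with a median of -0.57. All 3 encode parts of the coat. Ehd4 and Pacsin2, which act on many membranes, were at 0.03 ± 0.06 and 0.06 ± 0.04 (SE). The count was 5 without mouse 1 of the treated App group.

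Around Amot, 6 of 21 genes of the Hippo pathway were lower at an unadjusted p under 0.05. They were Wwtr1 and Yap1, which encode TAZ and YAP, their partners Tead1 and Tead4 and the target genes Ccn1 and Ccn2, with log2 fold changes between -1.60 for Tead4 and -0.59 for Ccn2. Tead4 was at 0.194 to 0.512 CPM in treated App mice, near the level of 3 counts, so its fold rests on few reads. The kinase genes Lats2 and Stk4 were at -0.03 ± 0.10 and 0.04 ± 0.07 (SE) and did not pass. The median of this list was -0.08.

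Around Sorbs2, 4 of 14 adhesion and stress fibre genes were lower at an unadjusted p under 0.05, including Vcl and Palld. Another was Cald1, which encodes the actin-binding protein caldesmon and was the only gene in the series with an adjusted p under 0.05 for the treatment of App mice. Cald1 was at 18.3 to 20.4 CPM in veh-treated and 10.8 to 12.8 CPM in treated App mice, and at 26.2 to 27.8 CPM and 34.1 to 37.2 CPM in veh-treated and treated WT mice. It fell in App mice (log2 fold change -0.71 ± 0.08, SE, adjusted p = 0.0354 in edgeR), and its log2 fold change in WT mice was 0.41 ± 0.08 (SE, adjusted p = 0.178 in edgeR). The call in App mice was lost when replicate number was a block, with the App groups alone in the fit and without any 1 of 4 of the 6 App mice.

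In the lists around the remaining members, 1 of 13 genes of Reelin signalling, Dab1, 1 of 17 around Eps8 and the coronins, Eps8l2, and 2 of 11 of calcium transport, Atp2b2 and Atp2a2, were lower at an unadjusted p under 0.05, beside 7.67% of all genes. The medians were -0.02, 0.02 and -0.18, against 0.0078 for all genes.

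The genes of highest level in the lists had log2 fold changes between -0.21 and 0.12 for the treatment of App mice. Lrp5, a Wnt co-receptor, was at -0.02 ± 0.06, Mob1a of the Hippo pathway at 0.04 ± 0.05, and Tln1, which encodes talin, and Cbl at 0.06 ± 0.05 and -0.02 ± 0.06 (SE). Lrp1 and Mylip, a lipoprotein receptor gene and the ubiquitin ligase gene that acts on such receptors, were at -0.01 ± 0.08 and 0.10 ± 0.11, Cfl1, which encodes cofilin, and Wasf2 at 0.12 ± 0.07 and 0.05 ± 0.04 and Atp2c1 at -0.03 ± 0.05 (SE). Dag1 at -0.21 ± 0.09 and Atp2a2 at -0.18 ± 0.05 (SE) were the ones with an unadjusted p under 0.05.

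In treated WT mice, no gene of the 8 lists passed an adjusted p under 0.05 in edgeR, and between 0 and 7 genes a list passed without adjustment, 7 of them in Wnt signalling and none among the caveolae genes. Without adjustment, 11.4% of all genes passed in either direction. The Wnt count was 2 without mouse 2 and 3 without mouse 3 of the treated WT group, and 4 without mouse 1 of the veh-treated WT group.

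The pathway lists were also compared with veh-treated WT mice. In treated App mice, with an adjusted p under 0.05 in edgeR, 12 of 23 basement membrane genes fell and 2 rose, 5 of 9 caveolae genes fell and 1 rose, and 12 of 21 Hippo pathway genes fell and none rose, beside 18.9% of all genes that fell and 19.9% that rose. Cavin2 fell the most of the caveolae genes named here (log2 fold change -1.62 ± 0.15, SE), Col4a1 was at -1.40 ± 0.20, Lama5 at -1.22 ± 0.16 and Ccn2 at -1.18 ± 0.25 (SE). Of Wnt signalling 14 of 38 genes fell and 7 rose, with Lef1 at -1.52 ± 0.20 and Fzd7 at 1.83 ± 0.13 (SE). Of the other lists, 4 of 13 Reelin signalling genes fell and 2 rose, 7 of 14 adhesion genes fell and 4 rose, 3 of 17 Eps8 and coronin genes fell and 4 rose, and 3 of 11 calcium transport genes fell and 3 rose. For treated App against veh-treated WT mice, the Hippo count was 7 without mouse 2 of the treated App group and 8 without mouse 3 of the veh-treated WT group.

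Between the veh-treated genotypes, where 16.9% of all genes fell and 20.1% rose with an adjusted p under 0.05 in edgeR, the lists held 7 falls and 4 rises for basement membrane, 4 and 1 for caveolae, 3 and 0 for Hippo and 10 and 13 for Wnt signalling. They held 3 falls and 3 rises for Reelin signalling, 5 and 6 for adhesion, 5 and 2 for Eps8 and the coronins and 2 and 4 for calcium transport. The total of both directions was thus higher in treated than in veh-treated App mice for basement membrane, caveolae and Hippo, equal for Reelin signalling, adhesion, Eps8 and the coronins and calcium transport, and lower for Wnt signalling.

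Genes of these lists with a low p between veh-treated App and WT mice rose as well as fell. Among them, Ctnnb1, Coro1c and Atp2b1, named above for the treatment, rose, at 0.50 ± 0.07, 0.87 ± 0.08 and 0.37 ± 0.05 (SE). Fzd9 and Vangl2, a planar cell polarity gene, rose, at 2.36 ± 0.34 and 0.75 ± 0.12 (SE), as did the kinase gene Fyn at 1.20 ± 0.10 (SE). Nexn, which encodes an actin-binding protein, rose, at 2.28 ± 0.16, and so did Coro6 at 0.62 ± 0.16, the calcium pump gene Atp2a1 at 2.77 ± 0.42 and Dag1, which encodes the laminin receptor dystroglycan, at 0.69 ± 0.09 (SE). Atp2a1 was at 0.178 to 0.298 CPM in veh-treated WT mice, near the level of 3 counts, so the size of its rise is uncertain. The genes for alpha-actinin, Actn1, and paxillin, Pxn, fell, at -1.31 ± 0.09 and -0.58 ± 0.06, as did the basement membrane genes Col15a1 and Nid2, at -0.66 ± 0.07 and -0.80 ± 0.12 (SE). Patj, Wasf2, Abi3, Crkl, Slc8a1 and Atp2a3 fell too, at -0.68 ± 0.16, -0.38 ± 0.04, -0.37 ± 0.07, -0.24 ± 0.07, -0.29 ± 0.05 and -0.55 ± 0.10 (SE). Of the genes called in treated App against veh-treated WT mice, a comparison that shares the WT mice with this one, Src fell (-0.42 ± 0.08, SE).

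The cell type markers show which other cells were in the preparations. The 10 microglial markers summed to 28637 to 33346 CPM in the 12 mice, against 70.4 to 217 CPM for the 10 genes. All 16 endothelial markers, all 10 mural cell markers, which mark pericytes and smooth muscle cells, and all 9 astrocyte markers were above 0 in at least 1 library. A lower level of a gene can come from fewer cells of a type or from less RNA per cell, and in these bulk samples these cannot be told apart.

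Endothelial markers were lower, like the 10 genes, in treated than in veh-treated App mice, the comparison that chose the genes. Their sum was 1125 to 1251 CPM in veh-treated WT, 951 to 1341 CPM in treated WT, 896 to 1181 CPM in veh-treated App and 747 to 824 CPM in treated App mice, and the last group did not overlap the others. All 16 markers were lower in treated than in veh-treated App mice, 13 of them at an unadjusted p under 0.05 and none at an adjusted p under 0.05 in edgeR, with a median log2 fold change of -0.64. Of all genes, 7.67% were lower at an unadjusted p under 0.05. Cldn5 and Cdh5, genes of endothelial junctions, were at -0.62 ± 0.19 and -0.75 ± 0.19 (SE). Between veh-treated genotypes 16.9% of all genes fell and 20.1% rose with an adjusted p under 0.05 in edgeR. At this limit 13 of the 16 markers fell and Slc2a1 rose, with a median of -0.79 for the 16. In this they differ from Lrp8, Eps8, Coro2b and Amot, whose means were higher in veh-treated App mice. In treated WT mice the median of the endothelial markers was -0.09, against 0.18 for the 10 genes. No endothelial marker passed an unadjusted p under 0.05 there.

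Set against the endothelial sum, the 10 genes amounted to 15.4 ± 0.81 CPM per 100 CPM of endothelial markers in veh-treated WT mice, 18.3 ± 1.9 in treated WT, 16.0 ± 2.6 in veh-treated App and 10.7 ± 2.3 in treated App mice (SD, n = 3). In treated App mice the ratio was 8.54 to 13.1, and in veh-treated ones 13.5 to 18.7. Flt1 and Slc2a1 have the highest levels of the 16 markers and were at -0.18 ± 0.15 and -0.13 ± 0.11 (SE) after treatment of App mice. Against veh-treated WT mice both were higher in treated App mice (0.12 ± 0.15 and 0.38 ± 0.11, SE), whereas the other 14 markers were lower. The ratio to the sum thus depends heavily on Flt1 and Slc2a1. Their means were 237 and 210 CPM in veh-treated WT and 257 and 275 CPM in treated App mice, within mean sums of 1170 and 797 CPM. A ratio without them was not computed for each mouse. From the group means it would be higher in both App groups than in veh-treated WT mice. It would still be lower in treated than in veh-treated App mice. What part the amount of vessel cells has in the falls of the 10 genes was not tested.

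Astrocyte markers differed more between the App mice. Their sum was 432 to 609 CPM in veh-treated WT and 436 to 799 CPM in treated WT mice. It was 4534, 4054 and 1414 CPM in veh-treated App mice 1, 2 and 3 and 1898, 657 and 1254 CPM in treated App mice 1, 2 and 3. All 9 markers rose in veh-treated App against veh-treated WT mice, with an adjusted p under 0.05 in edgeR and a median log2 fold change of 2.18. All 9 were lower after treatment of App mice at an unadjusted p under 0.05, with a median of -1.38 and overlapping groups. At the same limits, 20.1% of all genes rose in the first of these comparisons and 7.67% were lower in the second.

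Mouse 3 of the veh-treated App group, with the low astrocyte sum, was also the one that was low for some members and not for others. Its level as a percentage of the mean of mice 1 and 2 was 39.6% for Amot, 48.0% for Eps8, 64.1% for Coro2b, 64.2% for Cav2, 74.7% for Apcdd1 and 78.2% for Atp2b4. For Lrp8, Sorbs2, Fzd6 and Hspg2 it was 87.2%, 89.6%, 91.8% and 95.9%. Among the treated App mice, mouse 2 with the lowest astrocyte sum had the lowest level of all members except Fzd6. The same mouse also had the lowest mural cell sum of its group, 95.8 CPM against 157 and 143 CPM. Its fibroblast marker sum was the lowest too, 4.16 CPM against 9.30 and 8.91 CPM. Its endothelial sum, however, was the highest of its group, 824 CPM against 747 and 820 CPM. So was its sum of oligodendrocyte precursor markers, 171 CPM against 115 and 157 CPM. The part of the RNA of any of these cell types in these differences was not tested. Without mouse 3, the fit found 162 genes with an adjusted p under 0.05 in place of 1 for the treatment of App mice.

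Mural cell markers summed to 245 to 275 CPM in veh-treated WT, 292 to 384 CPM in treated WT, 155 to 226 CPM in veh-treated App and 95.8 to 157 CPM in treated App mice. All 10 were lower in treated than in veh-treated App mice, 4 at an unadjusted p under 0.05, with a median of -0.48, and 9 of 10 were higher in treated than in veh-treated WT mice, 2 at an unadjusted p under 0.05, with a median of 0.40. The 10 genes had medians of -0.95 and 0.18 in the same comparisons. Lower at an unadjusted p under 0.05 were 7.67% of all genes in App mice, and 11.4% passed in either direction in WT mice. Choroid plexus and ependymal markers, which come from the ventricles, were higher in treated than veh-treated WT mice for all 11 genes, 7 at an unadjusted p under 0.05, with a median of 1.27. Their part in the WT values of the 10 genes was not tested.

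**Figure D4:**
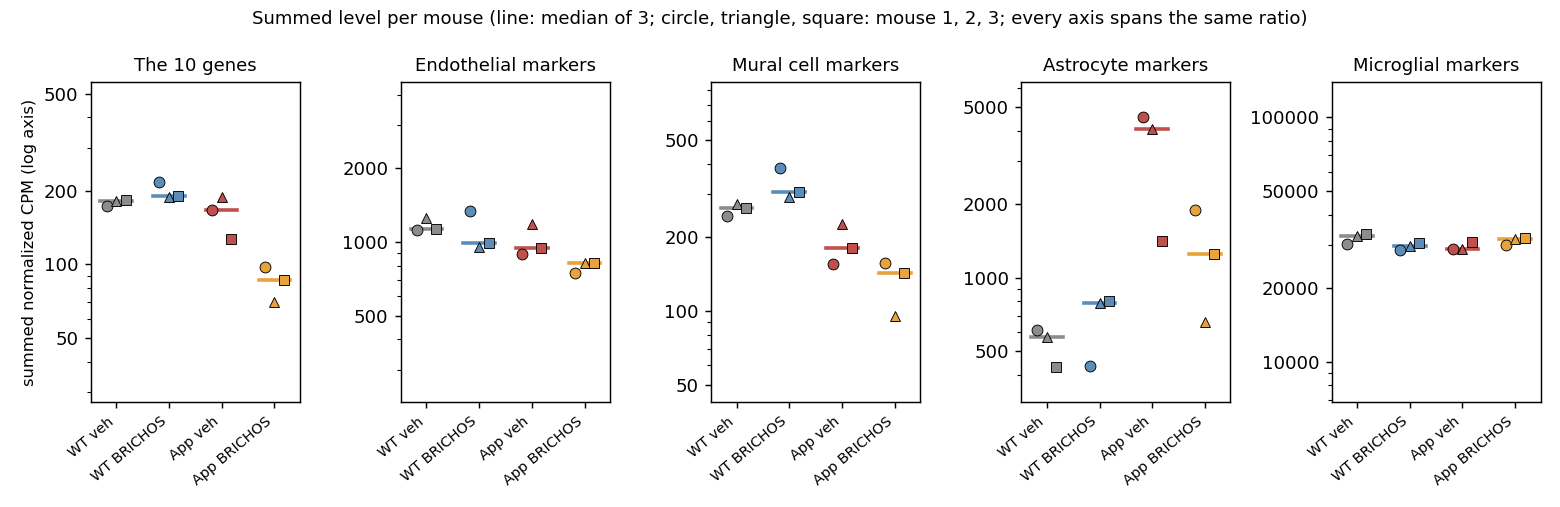
Summed normalized CPM of the 10 genes and of 4 marker lists in each mouse, on log axes that all span the same ratio, with lines at the median of 3 mice. The 10 genes, the endothelial and the mural cell markers have their lowest medians in treated App mice, the astrocyte markers are highest in veh-treated App mice 1 and 2, and the microglial markers stay between 28637 and 33346 CPM.

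How the members varied together from mouse to mouse was described by the correlation of their deviations from the group means over the 12 libraries, which share depth and cell content. The highest values were 0.83 for Amot and Cav2, 0.82 for Amot and Eps8, 0.80 for Apcdd1 and Coro2b and 0.80 for Hspg2 and Apcdd1. The lowest were -0.15 for Hspg2 and Lrp8 and -0.06 for Hspg2 and Eps8. Mouse 3 of the veh-treated App group was at 39.6%, 48.0% and 64.2% of the mean of mice 1 and 2 for Amot, Eps8 and Cav2. The correlations of these 3 genes can rest largely on this mouse and were not computed without it. Of the genes outside the 10, Crip2 was most like their mean profile over the 12 libraries (Pearson's r = 0.99), followed by Ccdc141, Vwa1, Pcdh1 and Pdgfrb, each with r between 0.97 and 0.98. Pdgfrb, the receptor that defines pericytes, is one of the mural cell markers. The profile over the 12 libraries includes the fall in treated App mice that chose the 10 genes. A similar fall was therefore built into the finding of these 5 genes. Their log2 fold changes were -0.995, -1.10, -1.02, -0.84 and -0.95 in the same order for the treatment of App mice. In WT mice they were 0.25, 0.15, 0.11, 0.12 and 0.39. Over the 6 WT libraries alone, the genes most like the members were Pard3b, Map3k7cl, Sh2b1, Tbx3os1 and Cd248, with r between 0.98 and 0.99, and no gene was among the first 5 in both.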

How the data were processed

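RNA sequencing of CD11b-positive cortical cells from 12 mice was used (App stands for App NL-G-F), 3 mice in each of 4 groups, assigned by the sample labels. Libraries were made with a stranded mRNA kit. The authors trimmed the reads with Cutadapt, aligned them to GRCm38 with STAR (version 2.6.1d in the submitters' processing notes), and used featureCounts 1.5.1 to obtain the deposited counts, which are whole numbers of reads per gene and are not normalized. The strand setting and the handling of shared reads are not given in the sources used here. Ensembl identifiers were matched to symbols, exonic lengths and coordinates with the GENCODE annotation of GRCm38 (55227 of 55487 matched), and upstream sequences are RefSeq's on GRCm38.p6.

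Counts were analysed with edgeR 4.0.16 in R 4.3.3. Genes were kept by filterByExpr with a minimum count of 10, and 1 quasi-likelihood model with 4 group means was fitted to all 12 libraries with TMM factors. P-values were adjusted by Benjamini and Hochberg over 15425 genes. The 10 genes and the gene lists were chosen with earlier results of these data known. The 10 genes were tested in WT mice only, and an unadjusted p under 0.05 is given as a description where no gene passed adjustment. With 3 mice against 3 an exact permutation test cannot go below 0.1, and none was used. Replicate libraries of a group differed by more than sampling noise (chi-square per degree of freedom 5.81 to 34.1). Figures were drawn with matplotlib 3.10.9.

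Named were the 10 genes, up to 4 called genes and the 2 of highest level of each list, the paralogs, some of the marker genes, and the 5 genes most correlated with the mean z-score of the members over all or the WT libraries. Genes named beyond this rule (Axin2, Wwtr1, Yap1, Tead1 and Palld) were chosen after their values were seen, and 2 genes of the lists are not reported here. The marker lists for neurons, oligodendrocytes, their precursors, fibroblasts, border macrophages, neutrophils and B cells are given in the closing section. Equal replicate numbers of different groups were checked by the correlation of their deviations from the group means. For treated App against veh-treated WT mice every pair was above 0.1 (0.264, 0.136 and 0.168). Unequal numbers were not compared and the labels do not tie the mice, so this does not establish pairing. The main fits are unpaired.

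The alternatives were DESeq2's size factors in edgeR, DESeq2's Wald test (DESeq2 1.42.0), the compared groups alone, no filter, at least 10 counts in every library, the replicate number as a block, and leaving out each library. In simulated data of 15425 genes for the WT comparison, with 200 changed by a factor of 2, edgeR found 167 with 7 false calls, and DESeq2 177 with 32. The 200 were drawn only from genes of higher mean count, and none of the 10 genes changed that much in WT mice. The share found thus does not carry over to genes of low count or to smaller changes.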

Additional observations from a re-analysis of the deposited data

Results flagged for a closer look

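Lrp8 had its WT and App mice on opposite sides. The log2 fold change of rh Bri2 BRICHOS R221E was 0.40 in WT and -0.92 in App mice, and in neither genotype did the treated mice overlap the veh-treated ones. The difference between the genotypes was not tested, because the direction in App mice was fixed by the choice of the gene.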

How the results depend on the processing

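Among the 10 genes, the log2 fold changes kept their direction in App mice under every alternative run. In WT mice Fzd6, Amot, Cav2 and Apcdd1 were near 0 and changed sign. With 1 library left out they ran from -0.041 to 0.157 for Fzd6, -0.085 to 0.134 for Amot, -0.291 to 0.051 for Apcdd1 and -0.174 to 0.018 for Cav2. Fzd6 and Amot turned without mouse 1 of the veh-treated or of the treated WT group, Cav2 without mouse 2 and Apcdd1 without mouse 3 of the treated WT group. The median of the members in WT mice was 0.069 to 0.222 when 1 library was left out. The number of members with an unadjusted p under 0.05 in WT mice was 2 with the compared groups alone in the fit and 0 to 2 when a library was left out. Genes with an adjusted p under 0.05 in WT mice numbered 85 with DESeq2's Wald test, 12 without a filter and 0 to 5 without 1 library, in place of 0. In App mice they numbered 124 with DESeq2, 25 without a filter, 0 with the compared groups alone and 0 to 162 without 1 library, in place of 1. Genes with an unadjusted p under 0.05 numbered 1107 to 2285 and 1106 to 2114 without 1 library. The causes were not tested, beyond the fewer mice of a left-out library.

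When replicate number was added as a block, the median of the members was 0.18 in WT and -0.96 in App mice, and 0 genes passed an adjusted p under 0.05 in either. Equal numbers correlated at a mean of 0.143 in WT and 0.0801 in App mice and 0.124 between veh-treated genotypes. At least 1 pair was under 0.1 in each. The numbers are not taken as pairs in any comparison, since the labels do not tie the mice. In treated App against veh-treated WT mice the block gave a median of -1.08 and 6314 in place of 5985 genes with an adjusted p under 0.05.

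Counts of 50 and more per library limit the members little, and 3 mice a group limit them more.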

Other observations

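The markers of further cell types are given here as medians of log2 fold changes in edgeR's fit. In treated against veh-treated WT mice the medians were 1.09 for 6 markers of oligodendrocyte precursors, 1.03 for 5 of B cells, 0.98 for 7 of fibroblasts and 0.44 for 7 of border macrophages, and 4, 3, 4 and 5 of these markers were higher at an unadjusted p under 0.05. They were 0.19 for 9 markers of neurons, -0.19 for 7 of neutrophils and -0.28 for 8 of oligodendrocytes, with none at an unadjusted p under 0.05. That limit was passed by 11.4% of all genes in either direction. No marker of these lists passed an adjusted p under 0.05 in edgeR for either treatment.

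In treated against veh-treated App mice the medians were -0.56 for oligodendrocyte precursors, -0.18 for neurons, -0.09 for fibroblasts, 0.04 for border macrophages, 0.08 for oligodendrocytes, 0.24 for B cells and 0.25 for neutrophils. Between veh-treated App and WT mice, 16.9% of all genes fell with an adjusted p under 0.05 in edgeR. All 7 neutrophil markers fell at this limit, with a median of -3.42. So did 6 of 7 border macrophage markers, with a median of -1.04. The part of these cells in the levels of the 10 genes was not tested.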
